A study of Rattus norvegicus with 31 samples.

Results

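The transcripts of 9 genes of triacylglycerol (TG) synthesis and glycerol phosphate metabolism were followed in 3 rat tissues, the liver and the white (WAT) and brown (BAT) fat, of animals fed diets of different carbohydrate to fat ratios. The genes were *Gpam*, *Agpat1*, *Agpat2*, *Lpin1*, *Lpin2*, *Dgat1*, *Dgat2*, *Gpd1* and *Gpd2*. They were taken by name, as the probe sets of the Affymetrix rat array that are annotated to the gene alone. This gave 16 of the 31042 probe sets, with 1 probe set for each of 2 genes (*Agpat2* and *Dgat1*) and 2 for each of the other 7. The 14217 genes with a probe set of their own form the rest of the series. Of the probe sets of a gene, the one with the highest mean in a tissue represents the gene there.

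Male Wistar rats that were 3 weeks old at arrival received diets with 65% of the energy from carbohydrate and 15% from fat (low fat, L), with 60 and 20% (moderate fat, M) or with 35 and 45% (high fat, H). The L-group ate freely for 9 weeks, and the M- and H-groups were given the same energy as the L-group. All rats had been without food for 17 h when tissue was taken. Livers came from 5 L, 4 M and 4 H rats, and WAT and BAT from 5 L and 4 H rats, which are the same animals as the livers, so that 31 arrays describe 13 rats. The H rats are numbered 12, 13, 15 and 16, the M rats 6, 8, 9 and 10 and the L rats 1 to 5. Age, strain, sex and fasting were shared by all groups, and no array of fed rats is part of the comparison. Each array holds the RNA of a whole tissue piece, in which fewer cells of a type and less RNA per cell cannot be told apart.

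TG is built on glycerol-3-phosphate. *Gpd1* encodes the cytosolic dehydrogenase that forms it from the glycolytic intermediate dihydroxyacetone phosphate, and *Gpd2* the mitochondrial dehydrogenase that oxidizes it back, which is also a step of gluconeogenesis from glycerol in the liver. Acyltransferases of the *Gpam* and *Agpat* families add fatty acids to it in turn, lipins remove the phosphate to leave diacylglycerol, and *Dgat1* and *Dgat2* add the last fatty acid. Liver uses the pathway to store and export fat, WAT to store it, and BAT to fill the droplets from which heat production draws.

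Most of these values did not separate the diets. On log2 values, limma with adjustment over all probe sets called none of the 9 genes in any of the 5 comparisons, and rose or fell is therefore written of none of them below. In the order L against M, M against H and L against H of the liver and L against H of WAT and BAT, limma called 0.00322, 0.00644, 0.0226, 0.0193 and 0% of all probe sets higher and 0.00322, 0.00644, 0.0129, 0.0354 and 0% lower, and 16 of the 17 WAT calls hold nearly the same value on every array. Unadjusted limma p under 0.05 were reached by 1, 3, 2, 2 and 0 of the members on the representing probe set, and by 2, 5, 4, 2 and 0 of their 16 probe sets. Rank products, the method of the study, called 2 genes in the liver (*Gpd2* lower in M than in L and lower in M than in H, *Lpin2* higher in H than in L), 4 genes in WAT (*Agpat2*, *Lpin2*, *Dgat1* and *Gpd1*, all lower in H) and 0 in BAT. These calls stand beside 0.264% of all probe sets called lower in M than in L, 0.422% called higher in H than in M, 0.664% called higher in H than in L in the liver and 1.08% called lower in WAT. Over the WAT probe sets that vary between arrays, the share called lower was 6.34%. Rank products scores how often a probe set ranks near the top or the bottom over all pairs of arrays, and calls it where the method's own estimate of the percentage of false positives is under 0.05. That estimate was too low in simulated liver data, where most calls fell on probe sets without a change, so its calls are given here as a description.

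**Figure D1:**
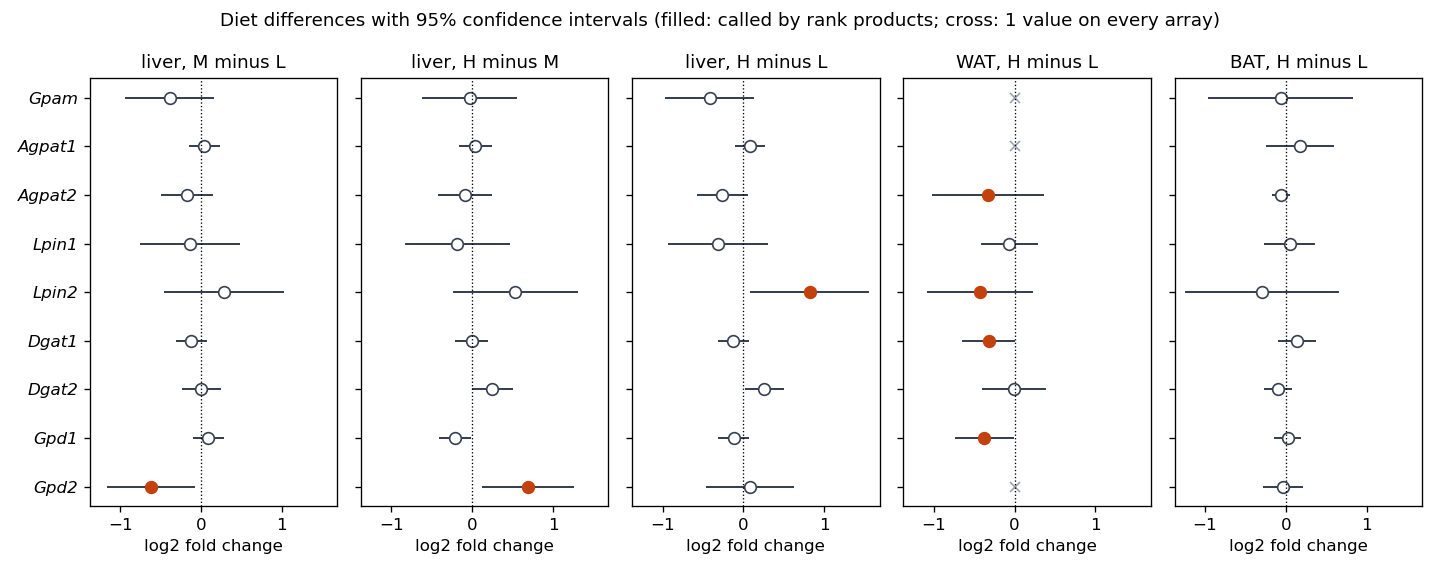
Log2 fold change of each gene (points) with its 95% confidence interval from limma (lines), for M against L, H against M and H against L in the liver and H against L in WAT and BAT. Filled points were called by rank products and crosses stand for genes with the same value on every WAT array; *Gpd2* lies at -0.61 and 0.69 in the first and second panels, *Lpin2* at 0.82 in the third, and the 4 filled points of WAT lie between -0.43 and -0.32.

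For the members on which these results turn, the promoter sequence was read from RefSeq (assembly GRCr8), as the 250 bases before the transcript start that the RefSeq table lists. An entry was matched for 6 of the 9 genes. *Lpin2* and *Gpd2* are shown because they carry the liver differences, and *Gpam* because its values varied with those of *Gpd2* within the diets. Capitals mark matches, on either strand, to the CCAAT box and to the sequence GGGCGG of the GC box. In each of the 3, the listed start lies inside the annotated span of the gene.
Gpam: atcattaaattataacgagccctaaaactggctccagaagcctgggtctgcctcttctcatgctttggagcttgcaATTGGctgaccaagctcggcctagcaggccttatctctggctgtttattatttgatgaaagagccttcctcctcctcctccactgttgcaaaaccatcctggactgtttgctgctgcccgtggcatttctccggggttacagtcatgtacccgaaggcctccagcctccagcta
Lpin2: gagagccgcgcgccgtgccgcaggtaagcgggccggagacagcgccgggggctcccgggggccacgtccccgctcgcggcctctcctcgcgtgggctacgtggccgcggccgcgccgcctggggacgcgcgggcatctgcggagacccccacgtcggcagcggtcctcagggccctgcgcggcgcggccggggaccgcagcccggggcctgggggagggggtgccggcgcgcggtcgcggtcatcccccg
Gpd2: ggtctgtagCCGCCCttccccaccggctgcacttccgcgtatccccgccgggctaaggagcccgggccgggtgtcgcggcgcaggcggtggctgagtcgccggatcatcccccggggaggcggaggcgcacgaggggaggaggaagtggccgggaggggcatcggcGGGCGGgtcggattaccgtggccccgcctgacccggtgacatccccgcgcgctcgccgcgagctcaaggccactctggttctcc

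The *Gpam* window lies at chr1:264175912-264176161 on the minus strand, with 51.2% G and C, and holds 1 CCAAT match. That of *Lpin2* lies at chr9:118530105-118530354 on the plus strand, with 82.4% G and C and 43 CG pairs, and holds neither motif. The *Gpd2* window lies at chr3:62211403-62211652 on the plus strand, with 74.4% G and C, and holds 2 GC box matches. Over 33469 rat promoters of this length the median was 51.2% G and C, 34% held CCAAT and 30.5% held GGGCGG. Neither CACGTG (E-box, 5.59% of promoters), TGACG (the core of a cyclic AMP response element, 18.2%) nor AGGTCA (a nuclear receptor site, 14.1%) occurs in the windows of the 6 genes.

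In the liver, the diets of moderate and low fat were compared first. *Gpd2* had the only call among the members. Its log2 values were 6.82, 6.46, 6.03, 5.99 and 6.93 in L rats 1 to 5, and 6.26, 5.86, 5.48 and 5.73 in M rats 6, 8, 9 and 10. The 3 lowest values were M rats and the 3 highest L rats, but M rat 6 lay above L rats 3 and 4. The group means were 6.45 ± 0.44 (SD, n = 5) and 5.83 ± 0.33 (SD, n = 4), a log2 fold change of -0.61 (standard error 0.25, limma adjusted p = 0.9999). Rank products called it lower, as it did 0.264% of all probe sets. Its other probe set was called too, with a log2 fold change of -0.55 (standard error 0.23, limma adjusted p = 0.9999). The 2 probe sets followed each other closely over the 13 livers (r = 0.95), so they count as a repeat of 1 measurement rather than as 2. The call was lost in 3 of 9 repeats that left out a rat (L rat 1, L rat 5 or M rat 9).

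The other 8 genes gave log2 fold changes of M against L from -0.39 (*Gpam*) to 0.28 (*Lpin2*), and the median of the 9 was -0.12 against -0.0012 over all probe sets. *Gpd2* was the only 1 of the 9 with an unadjusted limma p under 0.05, a level that 4.03% of all probe sets reached, and none of the 9 was without overlap between the groups (1.02% of all probe sets were). Without M rat 6, rank products also called *Gpam*, which encodes the mitochondrial enzyme of the first acylation, lower in M.

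**Figure D2:**
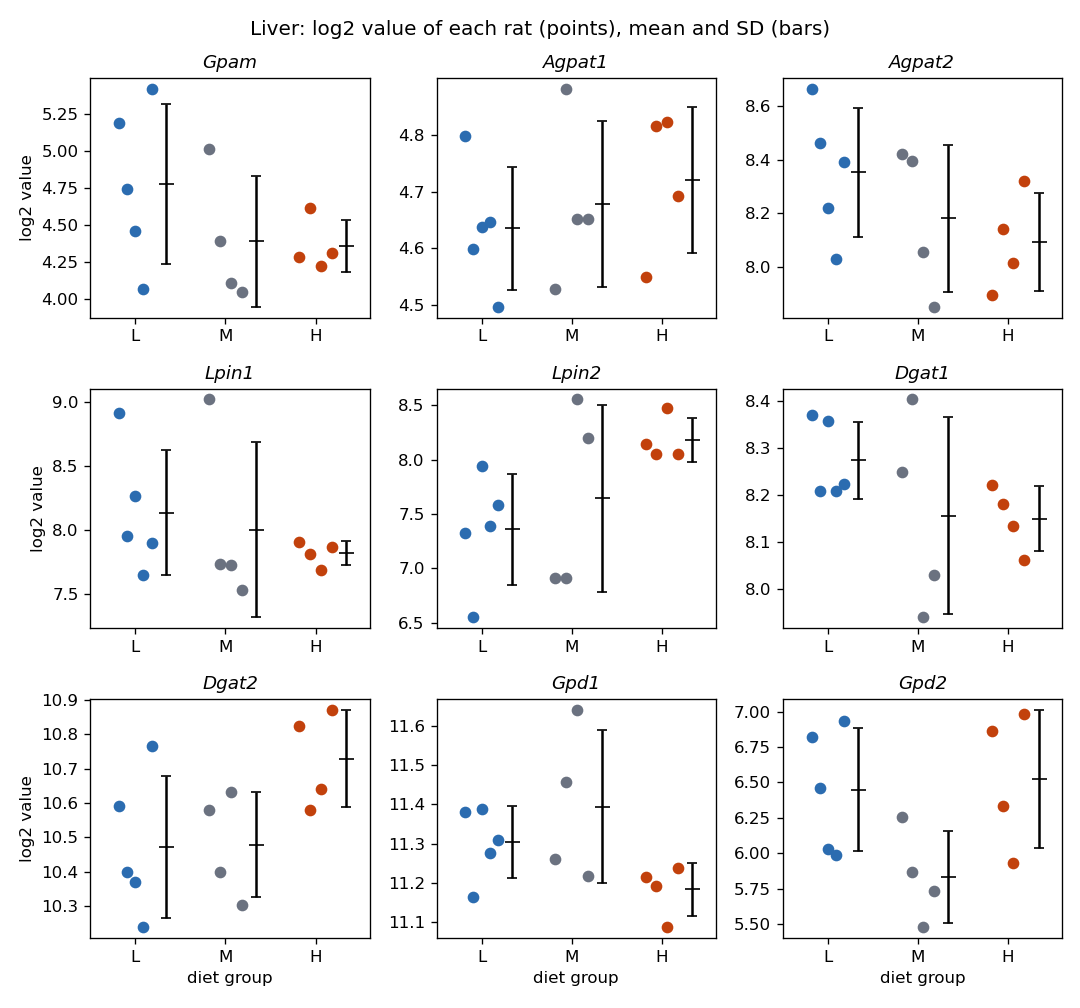
Log2 values of the 9 genes in the liver (vertical axes, each with its own range) of each L, M and H rat (points, in order of rat number), with the mean and SD of each group (bars). *Gpd2* is lowest in the M-group (mean 5.83), *Lpin2* lies above every L rat in the H-group, and the M-group splits into rats near 6.91 and rats above 8.1 for *Lpin2*.

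Between the M- and H-groups *Gpd2* lay on the other side. Its log2 values in H rats 12, 13, 15 and 16 were 6.86, 6.33, 5.93 and 6.98, with a mean of 6.53 ± 0.49 (SD, n = 4). H rat 15 fell within the range of the M rats, and the other H rats lay above all 4 of them. The log2 fold change of H against M was 0.69 (standard error 0.26, limma adjusted p = 0.789), and rank products called it higher, with 0.422% of all probe sets. The call was lost in 2 of 8 repeats, without H rat 12 or H rat 16. On its other probe set the fold change was 0.44 (standard error 0.25, limma adjusted p = 0.887) and rank products made no call. The comparisons of M with L and of H with M share the 4 M livers, so low values in these livers enter both. Against the L-group, the H-group differed by 0.08 (standard error 0.25, limma adjusted p = 0.956), with a 95% confidence interval from -0.46 to 0.61.

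The members *Dgat2* and *Gpd1* had an unadjusted limma p under 0.05 between M and H. *Dgat2*, an enzyme of the last acylation, had log2 values of 10.58, 10.40, 10.63 and 10.30 in M rats 6, 8, 9 and 10 and of 10.82, 10.58, 10.64 and 10.87 in H rats 12, 13, 15 and 16. The H values were the higher ones with an overlap at 10.58 to 10.63, and the fold change was 0.25 (standard error 0.11, limma adjusted p = 0.832). *Gpd1* had log2 values of 11.26, 11.46, 11.64 and 11.22 in the same M rats and of 11.22, 11.19, 11.09 and 11.24 in the H rats. Only H rat 16 lay above the lowest M rat, and the fold change was -0.21 (standard error 0.09, limma adjusted p = 0.817). Its other probe set gave -0.24 (standard error 0.10, limma adjusted p = 0.817). Over the 9 genes, 3 had an unadjusted p under 0.05, as did 5 of the 16 probe sets (5.89% of all probe sets did), none was without overlap (2.94% of all probe sets were), and the median fold change was -0.0061 against 0.00022 over all probe sets.

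From L to H the liver showed its largest difference among the members at *Lpin2*, a phosphatidic acid phosphatase of the liver. Its log2 values were 7.32, 6.55, 7.95, 7.39 and 7.58 in L rats 1 to 5 and 8.14, 8.05, 8.48 and 8.05 in H rats 12, 13, 15 and 16. Every H rat lay above every L rat, as for 3.06% of all probe sets, and the distance between the highest L rat and the lowest H rats was small beside the range of the L rats. The means were 7.36 ± 0.51 (SD, n = 5) and 8.18 ± 0.20 (SD, n = 4). The log2 fold change of 0.82, or 1.77-fold, had a standard error of 0.34 (limma adjusted p = 0.503). Rank products called it higher, with 0.664% of all probe sets, and kept the call in 9 of 9 repeats that left out a rat of the 2 groups.

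The M livers did not lie together for this gene. M rats 6 and 8 had log2 values of 6.91 and 6.91, within the range of the L rats, and M rats 9 and 10 had 8.55 and 8.20, within or above that of the H rats. The M mean was 7.64 ± 0.86 (SD, n = 4), and the fold changes of M against L (0.28, standard error 0.34) and of H against M (0.54, standard error 0.36) were not called by either method. Rank products called H against M when M rat 9 or M rat 10 was left out, with log2 fold changes of 0.84 and 0.72.

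The other *Lpin2* probe set did not show the difference. It read from 4.01 to 4.15 in the L livers and from 4.11 to 4.21 in the H livers, with a log2 fold change of 0.06 (standard error 0.05, limma adjusted p = 0.790), and over the 13 livers it was only loosely related to the first (r = 0.30). In every liver it read below the median of the array, which was 4.67 to 4.70, and whether it detects the transcript was not tested. Between L and M it was at -0.07 (standard error 0.05) and between M and H at 0.13 (standard error 0.05). With the mean of both probe sets in place of the first, the fold change of *Lpin2* was 0.44. For the *Gpd2* pair, in contrast, both probe sets give the low M values. Which part of the transcript a probe set reads was not tested.

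**Figure D3:**
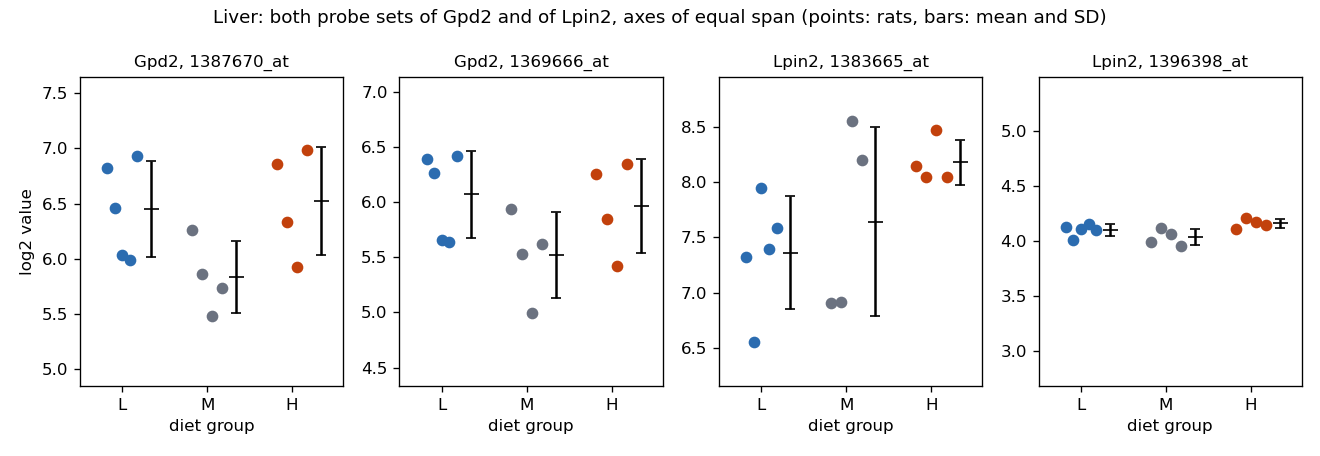
Liver log2 values of each rat on both probe sets of *Gpd2* and both of *Lpin2*, by diet group, with the mean and SD (bars); the 4 vertical axes span the same number of log2 units. The 2 *Gpd2* probe sets repeat the low M-group (-0.61 and -0.55 against L), and the second *Lpin2* probe set lies near 4.1 in every group.

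*Dgat2* was the only other member whose representing probe set had an unadjusted limma p under 0.05 between L and H. Its L values were 10.59, 10.40, 10.37, 10.24 and 10.77 in rats 1 to 5, against 10.58 to 10.87 in the H rats. L rats 1 and 5 overlapped with the H-group, and the fold change was 0.26 (standard error 0.11, limma adjusted p = 0.506). Its other probe set gave 0.07 (standard error 0.12). *Dgat1*, which catalyses the same reaction, was at -0.12 (standard error 0.08), so the 2 acyltransferases lay on opposite sides without either being called.

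The acyltransferases of the earlier steps lay mostly on the lower side in H. *Gpam* read 5.19, 4.74, 4.46, 4.07 and 5.42 in L rats 1 to 5 and 4.28, 4.61, 4.22 and 4.31 in the H rats. Its H values were tightly grouped inside the wide range of the L rats, with a fold change of -0.42 (standard error 0.25, limma adjusted p = 0.678). The other *Gpam* probe set gave -0.27 (standard error 0.10, limma adjusted p = 0.445). *Gpam* was called lower in H by rank products when L rat 4 or H rat 13 was left out. *Agpat2*, which adds the second fatty acid, was at -0.26 (standard error 0.14), and *Agpat1*, which catalyses the same step, at 0.08 (standard error 0.08). *Lpin1* was at -0.31 (standard error 0.28), with values from 7.65 to 8.91 in L, from 7.54 to 9.02 in M and from 7.69 to 7.91 in H. *Gpd1* was at -0.12 (standard error 0.08), with its other probe set at -0.25 (standard error 0.09, limma adjusted p = 0.468). Over the 9 genes the median was -0.12 against -0.00064 over all probe sets, with 4 higher and 5 lower. On the representing probe sets, the 2 genes with an unadjusted p under 0.05 (*Lpin2* and *Dgat2*) were higher. The other probe sets of *Gpam* and *Gpd1* reached that level too and were lower, which makes 4 of the 16 probe sets of the members against 9.05% of all probe sets.

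The mean of 5 markers (*Alb*, *Apoa1*, *Ttr*, *Serpina1* and *Hnf4a*) of liver was between 13.1 and 13.23 in the L livers, between 13.09 and 13.23 in the M livers and between 13.23 and 13.25 in the H livers. The H livers thus lay at the upper end of a narrow range, and its part in the values above was not tested.

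In WAT the question was whether H differed from L in the tissue that stores most TG. The qFARMS values of this tissue replace probe sets judged uninformative by a single value, and 25762 of the 31042 probe sets hold the same value on all 9 arrays to within 1e-06. Among the members this was so for 7 of 16 probe sets, including all of *Gpam*, *Agpat1* and *Gpd2*, for which these data carry no information on diet. The second *Lpin2* probe set was another. The remaining 6 genes all lay on the lower side in H, from -0.43 to -0.00127, with a median of -0.33 against 0.02 over the 5280 probe sets that vary, of which 39.3% were lower. The direction of *Dgat2* at the upper end turned with single rats and with the mean of its probe sets (0.03), and that of *Lpin1* without L rat 3 (0.0069).

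*Gpd1*, the source of glycerol-3-phosphate from glucose, had the smallest limma p of the members in WAT. Its log2 values were 13.03, 12.76, 12.88, 12.98 and 12.65 in L rats 1 to 5 and 12.79, 12.17, 12.32 and 12.66 in H rats 12, 13, 15 and 16. H rats 13 and 15 lay below every L rat, and H rats 12 and 16 within their range. With means of 12.86 ± 0.16 (SD, n = 5) and 12.49 ± 0.29 (SD, n = 4), the fold change was -0.37 (standard error 0.15, limma adjusted p = 0.805). Its other probe set gave -0.40 (standard error 0.17, limma adjusted p = 0.805) and varied with the first (r = 0.94). Both were called lower by rank products, with 1.08% of all probe sets, or 6.34% of those that vary. The call of the first was lost in 2 of 9 repeats, without L rat 1 or L rat 4.

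*Dgat1* read 10.85, 10.90, 11.37, 11.17 and 10.90 in L rats 1 to 5 and 10.97, 10.65, 10.63 and 10.62 in the H rats. H rat 12 lay among the L rats and the other 3 H rats below all of them, at -0.32 (standard error 0.13, limma adjusted p = 0.805). Rank products called it lower, and the call was lost without L rat 3 or L rat 4. *Dgat2*, in contrast, was at -0.00127 (standard error 0.16), with a 95% confidence interval from -0.38 to 0.38.

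*Lpin2* had log2 values of 8.53, 9.66, 8.73, 8.87 and 9.13 in L rats 1 to 5 and 9.04, 8.14, 8.50 and 8.53 in H rats 12, 13, 15 and 16. H rats 13, 15 and 16 lay below every L rat, though rats 15 and 16 only just (8.504 and 8.528 against 8.531 in L rat 1). H rat 12 lay within the L range, and L rat 2 stood above all others. The fold change was -0.43 (standard error 0.27, limma adjusted p = 0.851), and without L rat 2 it was -0.26 and no longer called by rank products. *Lpin1*, which adipocytes use for the same step, was at -0.06 (standard error 0.14).

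*Agpat2*, the acyltransferase whose loss in humans leaves little adipose tissue, read 10.45, 10.79, 11.23, 11.21 and 10.86 in L rats 1 to 5 and 11.24, 9.99, 10.78 and 10.29 in the H rats. The H rats spanned the whole range, with rat 12 at the top and rat 13 at the bottom, and the fold change was -0.33 (standard error 0.29, limma adjusted p = 0.851). Its call by rank products was lost in 6 of 9 repeats, and without H rat 13 the fold change was -0.14. H rat 12 had the highest value of the H-group for 5 of the 6 genes, *Lpin1* being the exception, where H rat 16 lay at 10.62 and H rat 12 at 10.60.

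**Figure D4:**
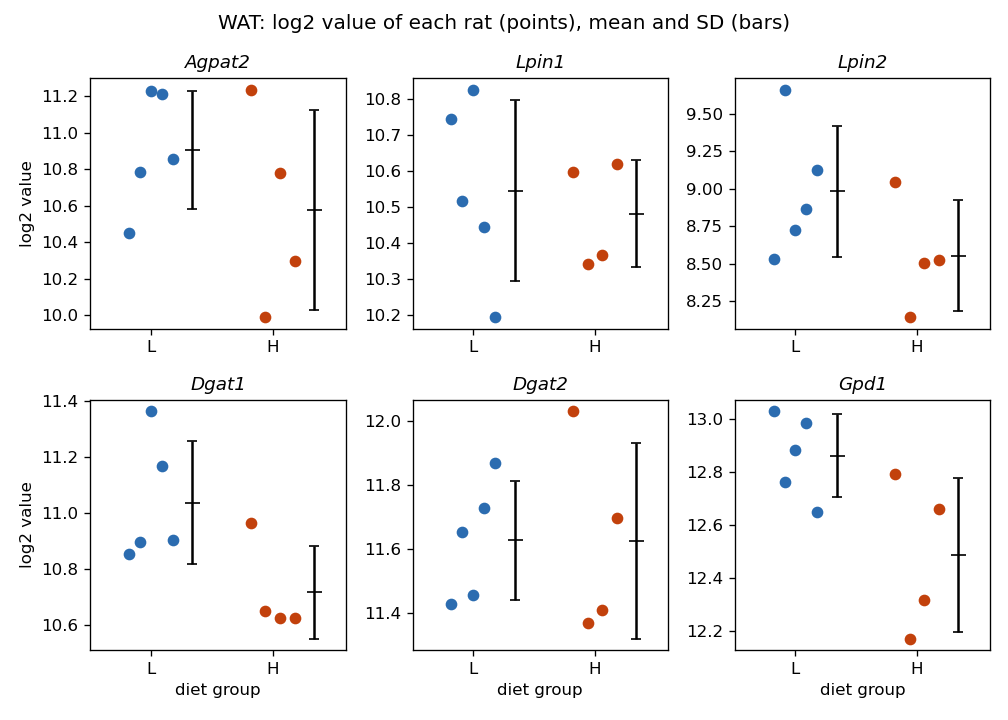
Log2 values in WAT of each L and H rat (points, in order of rat number) for the 6 genes that vary between the arrays, with the mean and SD of each group (bars). The groups overlap for every gene, and H rat 12, the first H point, lies within or above the L rats in each panel.

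Over the 6 genes of WAT, none was without overlap (2.69% of the varying probe sets were), 2 had an unadjusted limma p under 0.05 and were lower (7.59% of the varying probe sets had such a p in either direction), and limma called 0. Of the 4 genes called lower by rank products, *Gpd1* and *Dgat1* were those 2, and *Lpin2* and *Agpat2* had a larger p. Markers of the mesothelium, the lining of the abdominal cavity, ranged from 8.53 to 10.4 in the L rats and from 7.79 to 11.3 in the H rats as a mean of 4 genes, and those of macrophages from 9.86 to 10.2 and from 10.1 to 10.5 as a mean of 6 genes. Of 6 adipocyte markers 3 vary in these values, and the mean of the 6 was between 12.01 and 12.39 in every rat. The liver marker *Alb* read 7.83 to 12.7 over the WAT arrays. The part of other cell types, or of what *Alb* reads here, in the lower values was not tested.

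In BAT all 9 genes vary, and no member was called by limma or by rank products between L and H. The fold changes ran from -0.30 (*Lpin2*) to 0.18 (*Agpat1*), with a median of -0.03 against 0.0023 over the varying probe sets, 4 higher and 5 lower. With all arrays, none of the 9 had an unadjusted limma p under 0.05, which 6.71% of the varying probe sets had, and none was without overlap, as 2.34% were. Rank products called 0.702% of all probe sets higher and 1.33% lower in this tissue.

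H rats 13 and 15 stood apart in BAT, before any member is considered. Their mean over 12 skeletal muscle markers was 6.16 and 7.26, against 3.57 to 3.66 in the L rats and 3.68 and 3.64 in H rats 12 and 16. All 12 markers vary, but *Myh1* read 13.3 to 13.9 over all BAT arrays and *Myh2* at most 2.83. The brown adipocyte markers *Ucp1* and *Cidea* were at 14.4 or above on every array, *Dio2* ranged from 6.35 to 8.69 and *Ppargc1a* from 6.72 to 9.32. *Cox7a1* lay between 2.98 and 3.565, and *Elovl3* was at the lowest value of the tissue. The liver marker *Alb* read 12.6 to 13.4 over the BAT arrays. Because of the muscle markers, the fold changes of the members are given with and without the 2 arrays of H rats 13 and 15.

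For *Dgat2* these 2 arrays were the lowest and the highest of the H-group. Its log2 values were 13.63, 13.62, 13.61, 13.62 and 13.73 in L rats 1 to 5 and 13.52, 13.42, 13.76 and 13.49 in H rats 12, 13, 15 and 16. H rats 12, 13 and 16 lay below every L rat and H rat 15 above all of them, for a fold change of -0.10 (standard error 0.07, limma adjusted p = 0.970). Without H rats 13 and 15 it was -0.14 (limma adjusted p = 0.801). The other *Dgat2* probe set lay at -0.16 (standard error 0.12).

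*Agpat1* was the only member whose direction depended on the 2 arrays. It read 6.55 to 6.73 in the L rats and 6.90, 7.23, 6.96 and 6.29 in the H rats, so that 3 H rats lay above and H rat 16 below the L-group. The fold change of 0.18 (standard error 0.17) was -0.07 without the 2 arrays and -0.04 with the muscle score as a covariate. *Dgat1*, at 0.14 (standard error 0.09) with all arrays, was at 0.05 without them. *Gpd1*, at 0.02 (standard error 0.06), and *Agpat2*, at -0.06 (standard error 0.04), had narrow 95% confidence intervals, from -0.13 to 0.17 and from -0.15 to 0.04, and were at 0.05 and -0.08 without the 2 arrays.

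*Lpin2* and *Gpam* had the largest standard deviations of the members in BAT. *Lpin2* read 6.19, 7.49, 5.74, 6.72 and 6.15 in L rats 1 to 5 and 6.87, 5.88, 6.19 and 5.70 in the H rats. The ranges overlap almost fully, at -0.30 (standard error 0.40). Its other probe set lay at 2.43 on 8 of 9 arrays, near the lowest value of the tissue, and gave 0.12 (standard error 0.10). *Gpam* was at -0.06 (standard error 0.38), *Lpin1* at 0.05 (standard error 0.13) and *Gpd2* at -0.03 (standard error 0.10). Without H rats 13 and 15, *Lpin2* was at -0.17, *Gpam* at -0.24, *Lpin1* at 0.05 and *Gpd2* at -0.11, and none was called by either method.

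**Figure D5:**
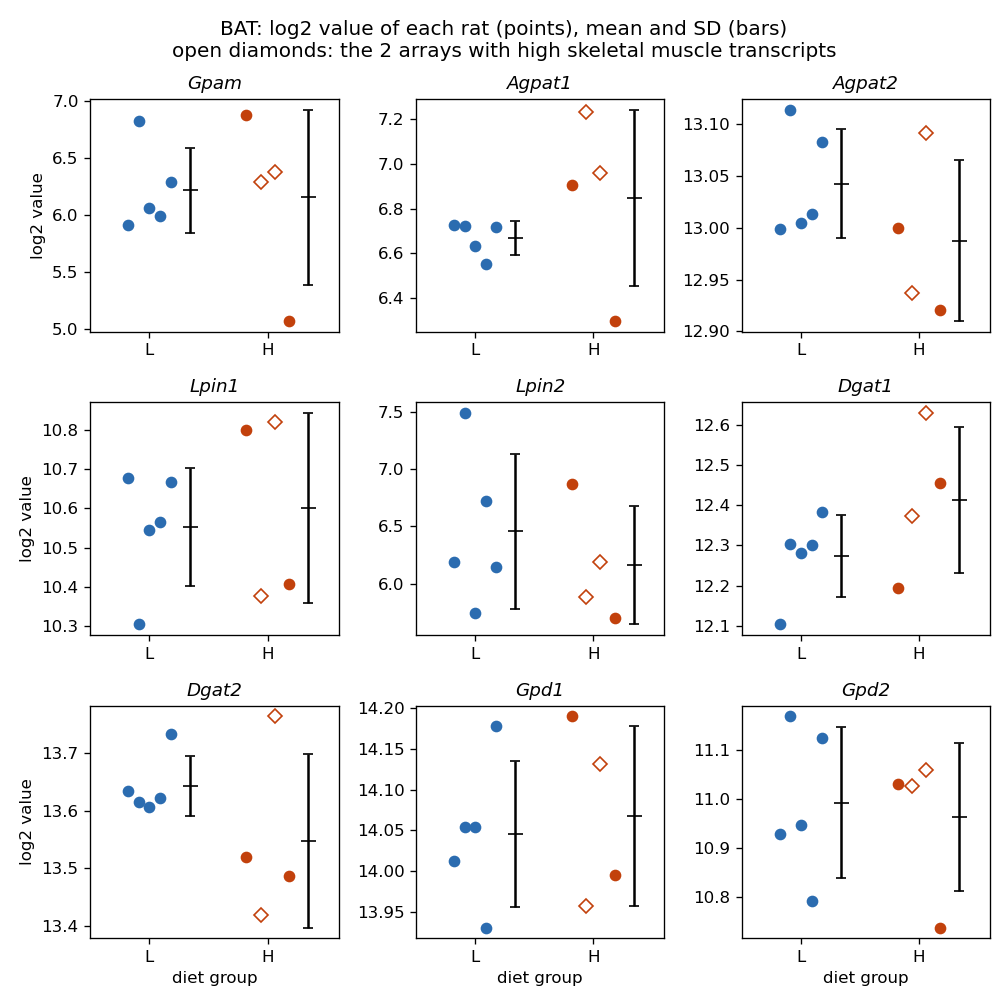
Log2 values of the 9 genes in BAT of each L and H rat (points, in order of rat number), with the mean and SD of each group (bars). Open diamonds are H rats 13 and 15, whose skeletal muscle markers averaged 6.16 and 7.26; for *Dgat2* these 2 arrays are the lowest (13.42) and the highest (13.76) of the H-group.

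Because the same rats gave all tissues, the H against L difference of each gene could be compared between tissues, with the limit that every tissue was normalized by another method on its own, so that the size of a log2 unit may not be the same. The largest difference among the members was that of *Lpin2*, on its representing probe set. Its fold change was 0.82 in liver, -0.43 in WAT and -0.30 in BAT, and WAT minus liver was -1.25 (standard error 0.36, limma adjusted p = 0.203). BAT minus liver was -1.12 (standard error 0.46, limma adjusted p = 0.388), and -0.99 (limma adjusted p = 0.660) without the 2 BAT arrays of H rats 13 and 15. Neither passed the adjustment over all probe sets. With rat as a replicate block the limma adjusted p of WAT minus liver was 0.432 and that of BAT minus liver 0.54 (standard error 0.55). The other *Lpin2* probe set did not show the difference, with 0.06 for BAT minus liver (standard error 0.11), and it holds the same value on every WAT array. The interaction called 0.177% of all probe sets for WAT minus liver, 0.206% for BAT minus liver and 0.0419% for BAT minus WAT, and 0 members in any of them.

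Smaller differences between tissues, none of them called, lay at *Dgat2*, *Dgat1* and *Gpd1*. *Dgat2* differed between BAT and liver by -0.35 (standard error 0.13, limma adjusted p = 0.346), with a fold change of 0.26 in the liver and -0.10 in BAT. *Dgat1* differed between BAT and liver by 0.26 (standard error 0.11, limma adjusted p = 0.373) and between BAT and WAT by 0.46 (standard error 0.16, limma adjusted p = 0.663). For *Gpd1*, BAT minus WAT was 0.40 (standard error 0.16, limma adjusted p = 0.847). Without the BAT arrays of H rats 13 and 15 these 4 differences were -0.40, 0.17, 0.37 and 0.42, with limma adjusted p of 0.464, 0.706, 0.420 and 0.367. With all arrays and rat as a replicate block, the limma adjusted p of the 4 differences were 0.359, 0.523, 0.987 and 0.987. Without the block, the other *Dgat2* probe set gave -0.23 between BAT and liver (standard error 0.17). The other *Gpd1* probe set gave 0.48 between BAT and WAT (standard error 0.25).

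How the members vary among themselves was examined within diets, after the mean of the diet had been removed, over 87 pairs of genes in the 3 tissues. Of these pairs, 21 of 36 were positive in the liver, 13 of 15 in WAT and 31 of 36 in BAT. The share of positive pairs over all probe sets was not determined, so these counts are a description only. *Gpam* and *Gpd2*, whose promoters are printed above, varied together in the liver (r = 0.72, exact permutation p = 0.00910; rho = 0.74, p = 0.00810; n = 13) and in BAT (r = 0.83, exact permutation p = 0.00868; rho = 0.82, p = 0.00451; n = 9). Without the 2 arrays farthest from the median these were 0.57 and 0.85. *Gpam* also varied with *Agpat2* in the liver (r = 0.73, exact permutation p = 0.0157; rho = 0.79, p = 0.00901; r = 0.80 without 2 arrays). In WAT, *Agpat2* and *Dgat1* had r = 0.76 (exact permutation p = 0.0115; rho = 0.68, p = 0.0281; r = 0.77 without 2 arrays). The p of r was under 0.05 for 4, 3 and 5 pairs of the 3 tissues, and 0 of 87 passed Benjamini-Hochberg adjustment, the smallest adjusted p being 0.298 for r and 0.196 for rho.

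As a description, the genes most like the member with the smallest limma p in a tissue were listed over all arrays of that tissue, diet differences included. For *Gpd2* in the 13 livers these were *Agfg1* (r = 0.90), *Elavl1* (r = 0.85) and *Me1*, the cytosolic malic enzyme (r = 0.85), out of 20810 probe sets. *Gpd1* in the 9 WAT arrays was most like *Acsl1*, an acyl-CoA synthetase (r = 0.96), *Chrna7* (r = 0.95) and *Timm50* (r = 0.92), out of 4107. *Dgat1* in the 9 BAT arrays was most like *Ap3m1* (r = 0.95), *Dnajc5* (r = 0.95) and *Srsf4* (r = 0.94), out of 15047.

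The rest of the pathway was looked at through 3 further lists. Of 9 other genes of TG synthesis, 8 were measured (*Gpat3* was not matched to a probe set here). The study lists *Gpat3*, under its older symbol *Agpat9*, among the liver genes lower in M and higher in H. That gene is therefore missing from what follows. In the liver the fold changes of the 8 lay between -0.19 and 0.14 in all 3 comparisons, and none was called by limma or rank products. Only *Agpat4* had an unadjusted limma p under 0.05 (M against H, -0.19, limma adjusted p = 0.826). In WAT only *Agpat3*, an acyltransferase that uses lysophosphatidic acid among other acceptors, varies. It was at -0.61 in H (standard error 0.18, limma adjusted p = 0.629) and was called lower by rank products, with 1.08% of all probe sets, or 6.34% of those that vary. The other *Agpat3* probe sets that vary in WAT lay at -0.13 (standard error 0.06) and -0.15 (standard error 0.08) and were not called. In BAT 7 of the 8 vary, from -0.43 to 0.36, and none was called or had a p under 0.05, with or without H rats 13 and 15.

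Of 8 genes that supply glycerol or glycerol phosphate (*Gk*, *Gpd1l*, *Aqp3*, *Aqp7*, *Aqp9*, *Pck1*, *Tpi1* and *Pgp*), none was called by limma or rank products in any comparison. Their fold changes lay between -0.11 and 0.20 in the liver, 2 of the 8 vary in WAT (-0.11 and -0.09), and 6 vary in BAT (-0.16 to 0.16). *Gpd1l*, a relative of *Gpd1*, was the only 1 with an unadjusted limma p under 0.05, at 0.20 in the H livers against L (standard error 0.09, limma adjusted p = 0.551).

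Among 12 proteins of the lipid droplet, in which the product is stored, limma called 0 in every comparison and rank products called several. In the liver *Plin3*, a droplet coat protein, was called lower in H than in L (-0.55, standard error 0.21, limma adjusted p = 0.472), as were 0.757% of all probe sets. *Cidea*, which enlarges droplets, was called higher in H than in M (0.78, standard error 0.49) and than in L (0.48, standard error 0.46), beside 0.422% and 0.664% of all probe sets. *Fitm2*, which takes part in droplet formation, was called lower in H in WAT (-0.20, standard error 0.14), beside 1.08% of all probe sets, or 6.34% of those that vary. Its other probe set was not called (-0.13, standard error 0.08).

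In BAT the largest differences of the droplet list were at the perilipins, which coat the droplet. *Plin2*, which is found in many cell types, was at 12.40 ± 0.10 (SD, n = 5) in L and 11.95 ± 0.30 (SD, n = 4) in H, with every H rat below every L rat (-0.45, standard error 0.14, limma adjusted p = 0.838), and was called lower, with 1.33% of all probe sets. *Plin5*, the perilipin of oxidative tissues, was called higher (0.60, standard error 0.29, limma adjusted p = 0.970), with 0.702% of all probe sets. *Plin4* (0.28, standard error 0.07, limma adjusted p = 0.652) and *Fitm2* (0.19, standard error 0.05, limma adjusted p = 0.681) were without overlap between the groups but not called. With *Plin2*, 3 of the 10 droplet genes that vary were without overlap, against 2.34% of all varying probe sets. The other *Fitm2* probe set lay on the opposite side, at -0.28 (standard error 0.11, limma adjusted p = 0.970), so the data give no single direction for this gene. In all, 5 of the 10 droplet genes that vary had an unadjusted limma p under 0.05, 4 of them higher in H, against 6.71% of all varying probe sets, and the median of the 10 was 0.16. Without H rats 13 and 15, whose skeletal muscle markers were high, *Plin2* was at -0.63 (standard error 0.16, limma adjusted p = 0.801) and still called lower by rank products, *Plin4* at 0.24, *Fitm2* at 0.18, and *Plin5* at 0.60 (standard error 0.42) and no longer called. Of the 5 genes with an unadjusted limma p under 0.05 on all arrays, 3 were again under it (*Plin2*, *Plin4* and *Fitm2*). *Cidea* (log2 fold change 0.08) and *Cidec* (0.36) were not. The share of all probe sets under that level without the 2 arrays was not determined, so this count is a description only.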

How the data were processed

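Each rat gave 1 Affymetrix GeneChip expression array for each tissue studied in it (liver, WAT or BAT). The authors deposited log2 values, made with RMA for the liver, qFARMS for WAT and GCRMA for BAT, each tissue normalized alone. They were used as deposited, without 57 control probe sets, since no scanner files were used here. Liver values ran from 1.78 to 14.3, WAT values from 4.56 to 14.9 and BAT values from 2.29 to 15.7, and in BAT on every array 13221 probe sets read at most 0.1 above the lowest value. No 2 arrays held the same values. There are no read counts, so the number of arrays limits the precision.

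Fold changes, standard errors and p came from limma (lmFit and eBayes) within each tissue, with Benjamini-Hochberg adjustment over 31042 probe sets and calls under 0.05. Rank products, written in Python, used every pairwise ratio of arrays and 100 permutations. Differences between tissues came from the limma interaction of tissue and diet. Same-numbered arrays come from the same animal, and their deviations from the group means correlated by 0.170 to 0.359 between liver and WAT, 0.0493 to 0.195 between liver and BAT and 0.152 to 0.506 between WAT and BAT, so rat as a replicate block was an alternative. Correlations between members were tested by exact permutation within diets. Both calling methods were tested on simulated data with known changes. There limma stayed near its nominal level and recovered fewer of the changes in WAT and BAT than in the liver, whereas rank products, run on simulated livers, recovered more but made most of its calls on unchanged probe sets. Python 3.11.15, numpy 2.4.6, pandas 2.3.3, scipy 1.17.1, matplotlib 3.10.9, R 4.3.3 and limma 3.58.1 were used.

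Every member is named, by the probe set that is brightest on average in a tissue. Another probe set of a member is named where its call or its value (by over 0.3) differs. Of the other lists, genes called by either method are named, and further genes were added after their values were seen. The members and lists were chosen with earlier results of these data known. A skeletal muscle list, and lists for liver, adipocytes, brown adipocytes, macrophages, lymphocytes and mesothelium, served to check the tissues. Lymphocyte markers, of which 4 were measured, averaged at most 4.23 in liver, held 1 value in WAT and averaged at most 2.38 in BAT. Alternatives were array weights, a trended and robust fit, centring, quantile normalization, only probe sets whose mean exceeds the median, a fit on the compared groups only, a gene's probe sets averaged, the muscle score as a covariate, a false discovery rate of 0.01 and each rat left out. The restriction to varying probe sets and the removal of the BAT arrays of H rats 13 and 15 were chosen after seeing the data.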

Additional observations from a re-analysis of the deposited data

Results flagged for a closer look

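In 4 of the 57 groups of 4 or 5 rats that were examined, a single rat stood apart from the others by Dixon's criterion. Chance alone flags about 1 group in 20. *Lpin1* read 9.02 in the liver of M rat 6, while the other M rats read 7.54 to 7.73. *Dgat1* read 10.97 in the WAT of H rat 12, while the other H rats read 10.65 or less, which is where the H-group overlaps with the L-group. *Dgat2* read 13.73 in the BAT of L rat 5, against 13.61 to 13.63 in the other L rats. *Gpd2* read 10.74 in the BAT of H rat 16, against 11.03 to 11.06 in the other H rats.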

How the results depend on the processing

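Of the 16 probe sets of the members, 7 give no value for diet in WAT. In these data limma called 0 members under every alternative, and the smallest adjusted p was 0.131. Of 1038 single values under an alternative, 983 kept their direction. The other 55 changed sign without a call on either side, 44 of them with a rat left out.

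The counts of members called by rank products moved more. Leaving out each rat in turn gave 0 to 2 calls for L vs M, 0 to 2 for M vs H and 1 to 2 for L vs H in the liver, 1 to 4 in WAT and 0 in BAT. At a false discovery rate of 0.01 the counts were 0 for L vs M, 0 for M vs H and 1 in WAT (against 1, 1 and 4), and *Lpin2* in the liver L vs H was still called. Keeping only probe sets whose mean exceeds the median gave 2 in WAT, without *Agpat2* and *Dgat1*. With limma in place of rank products the count was 0 in each comparison.

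With rat as a replicate block, the paired analysis of the differences between tissues called 0 members, as the analysis without the block did. Over all probe sets the block reduced the calls from 55 to 4 (WAT minus liver), from 64 to 3 (BAT minus liver) and from 13 to 0 (BAT minus WAT). Within a tissue no paired analysis was possible because the diets share no rat number.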
